A study of Mus musculus with 4 samples.

Results

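Flt3-positive progenitors were examined in 4 droplet single-cell RNA-sequencing libraries of spleen and bone marrow (BM) from tumor-bearing and control mice. They were selected on measured counts, as barcodes with at least 1000 detected genes and at most 10% mitochondrial unique molecular identifiers (UMIs, which count RNA molecules), at least 1 UMI each of Kit and Cd34, at least 2 UMIs of Flt3, and at most 1 UMI each of Hlf and Elane. The rule found 324 barcodes among 16261 that passed the filters on genes and mitochondrial UMIs. Kit is the receptor for stem cell factor, Cd34 a surface sialomucin of early progenitors, Flt3 the receptor for FLT3 ligand, Hlf a transcription factor of stem cells, and Elane the neutrophil elastase gene of granulocyte precursors. The cells were chosen by these values, so the levels of these genes are descriptions and were not tested.

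The 4 groups were CBM and CS, the BM and spleen of control mice, and TBM and TS, the BM and spleen of mice with a tumor, all from C57BL/6J mice aged 8 to 16 weeks, with 1 library per group. The tumor was PyMT-B6, an injected mammary tumor cell line driven by the polyoma middle T oncogene, and control mice carried no tumor. Cells of both organs were digested with enzymes, depleted of lineage-positive cells, sorted into hematopoietic c-Kit-positive fractions with and without Sca-1 and into CD45-negative fractions gated on CD31 and CD51, and pooled at equal ratios. A percentage of barcodes is therefore a percentage of such a pool and not of an organ, and the number of mice behind each library is not given in the sources used here. With 1 library per group, no test between groups was possible: intervals between libraries cover counting error only, and a difference between mice cannot be told apart from a difference between groups.

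As background, multipotent progenitors that gain Flt3 lose megakaryocyte and erythroid potential and keep lymphoid, dendritic, and granulocyte-monocyte potential, which is why they are called lymphoid-primed. The first lymphoid genes to be transcribed in them include Dntt, which encodes the terminal transferase that adds nucleotides at antigen receptor joints, Satb1, a chromatin organizer, Notch1, and sterile transcripts of the immunoglobulin heavy chain locus. Flt3 ligand also drives dendritic cell development, and committed dendritic cell precursors keep Flt3 on their surface.

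In GENCODE vM21 on the mouse build GRCm38 (mm10), Flt3 lies on chr5:147330741-147400489 on the minus strand, Dntt on chr19:41029275-41059525 on the plus strand, Satb1 on chr17:51736187-51833290 on the minus strand, and Irf8 on chr8:120736358-120756694 on the plus strand. Each of these spans is the whole gene, exons and introns together. Irf8, the interferon regulatory factor of dendritic cell and monocyte precursors, overlaps the read-through gene Gm20388 on the same strand, so its counts could be split between the pair.

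The libraries held 101811035 to 176094297 UMIs. The Flt3-positive progenitors numbered 79 in CBM and 108 in TBM against 51 in CS and 86 in TS, with median UMIs per cell of 21051, 17514, 28547, and 17644. Their UMIs summed to 1775906, 2004118, 1645790, and 1624798, so a gene with 0 UMIs may still have been present at up to 1.5 to 1.85 UMIs per 1000000 (CPM). Between 2 and 9 barcodes were shared by any of the 6 pairs of libraries, 1 Flt3-positive progenitor had a barcode that also passed the filters in another library, and 0 barcodes were Flt3-positive progenitors in both. No doublets were removed.

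The CS cells stood apart from the other libraries and went against the label of lymphoid-primed progenitors in part. Of the 51 CS cells, 27 (52.9%) had at least 100 UMIs of the MHC class II genes Cd74, H2-Aa, H2-Ab1, and H2-Eb1 together, with 330 to 2583 such UMIs per cell. This was seen in 1 of 79 CBM cells, 0 of 108 TBM cells, which allows a share of up to 2.78%, and 3 of 86 TS cells. The 293 other cells had at most 26 such UMIs, so the 2 sets did not overlap, and the 31 cells above the limit made up 9.57% of all. They are called class II-high and the others class II-low here. This division was chosen after the values had been seen, and the results on CS that the text turns on are given with and without the class II-high cells. Other CS values are of all 51 cells unless the sentence says class II-low.

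The class II-high CS cells carried genes of dendritic cells. Xcr1, the chemokine receptor of cross-presenting dendritic cells, had a UMI in 24 of the 27 cells and in 2 of the 3 class II-high TS cells, but in 0 of the 24 class II-low CS cells, which allows a share of cells with a UMI of up to 12.5% (3 counts of the total, a limit on detection and not on expression). Clec9a, a receptor for dead cells on the same dendritic subset, stood at 276 CPM in the class II-high CS cells, Batf3, its transcription factor, at 257 CPM, Itgax (CD11c) at 129 CPM, and Zbtb46, a transcription factor of conventional dendritic cells, at 61.6 CPM. In class II-low CS cells Clec9a and Batf3 had 0 UMIs, Itgax stood at 7.97 CPM, and Zbtb46 at 2.66 CPM. Of the 14 genes of the dendritic list, 2 had 0 UMIs in the class II-high CS cells, among them Siglech, which marks plasmacytoid dendritic cells. Id2, an inhibitor of E proteins, stood at 1241 CPM against 6.64 CPM, and Irf8 at 2016 CPM against 341 CPM.

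Dntt had 0 UMIs in all 31 class II-high cells, and Cd34 stood at 52.7 CPM in those of CS against 328 CPM in class II-low CS cells, while Kit was alike at 197 CPM and 199 CPM. The highest ratios of class II-high over class II-low CS cells, among genes of at least 100 CPM, were those of Plbd1 (994 CPM against 1.33 CPM), H2-Eb1, Naaa (634 CPM against 1.33 CPM), Aif1 (581 CPM against 1.33 CPM), and Cd74 (11181 CPM against 27.9 CPM). H2-Eb1 and Cd74 are among the 4 genes that set this division, so their ratios were fixed by it. Cd74 encodes the invariant chain that guides class II molecules, and Ciita, their transcriptional activator, stood at 441 CPM against 0 UMIs. Free RNA, taken from barcodes with at most 100 UMIs, held the 10 genes of the MHC class II list at 3034 CPM in CS and at 153 to 285 CPM in the other libraries, and its part in these values was not tested. Ccr9, a gut-homing chemokine receptor of the early lymphoid list, stood at 99.7 CPM in the class II-high CS cells and had 0 UMIs in the class II-low ones. The 14 genes of the early lymphoid list summed to 3593 CPM in the class II-high CS cells against 1505 CPM in the class II-low ones and 1043 to 1873 CPM in class II-low cells of the other libraries. Cd52, a surface glycoprotein of lymphocytes that other leukocytes carry as well, stood at 2327 CPM against 258 CPM, and Lsp1, an actin-binding protein of leukocytes, at 912 CPM against 185 CPM, while Satb1 stood at 32.5 CPM against 262 CPM. The list total and its members Dntt and Satb1 thus differed in direction. The mitotic list reached 3428 CPM in the class II-high CS cells against 2109 CPM in the class II-low ones, and the S phase list 1301 CPM against 2369.7 CPM.

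**Figure D1:**
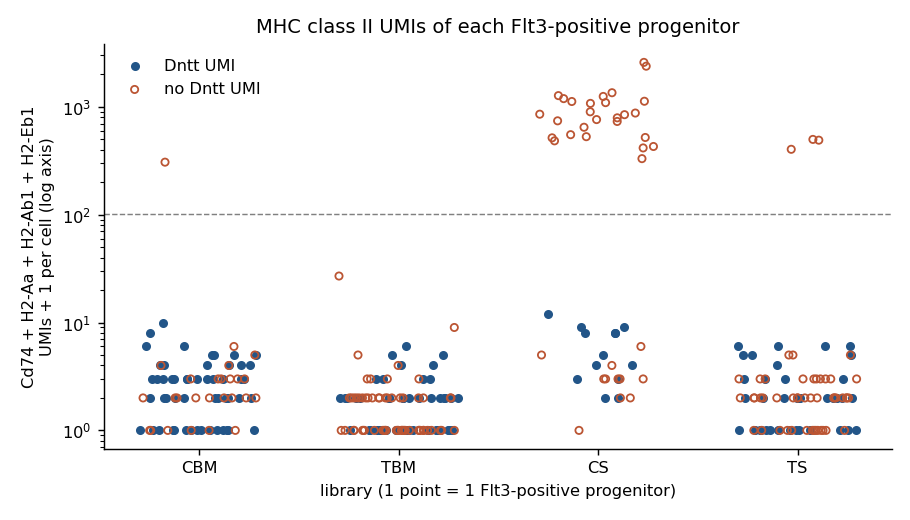
Summed UMIs of Cd74, H2-Aa, H2-Ab1, and H2-Eb1, plus 1, in each Flt3-positive progenitor on a log axis, by library. Filled points are cells with a Dntt UMI, open points cells without, and the dashed line marks 100 UMIs. In CS, 27 of 51 cells lie above the line and all of them lack Dntt, against 1 of 79 in CBM, 0 of 108 in TBM, and 3 of 86 in TS.

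Of the defining markers, Kit, Cd34, and Flt3 were fixed by the rule, so among class II-low cells the label was read against Dntt. Its transcript had a UMI in 53 of 78 CBM cells (67.9%, exact binomial 95% interval 56.4 to 78.1), 49 of 108 TBM cells (45.4%, 35.8 to 55.2), 13 of 24 CS cells (54.2%, 32.8 to 74.4), and 37 of 83 TS cells (44.6%, 33.7 to 55.9). The CBM interval lay above those of TBM and TS, and that of CS overlapped all the others. The other class II-low cells, most of those in TBM and TS, had 0 UMIs of it. In erythroid barcodes, which should lack Dntt, the share with a UMI was 0 to 0.244%, at median depths of 13912 to 60180 UMIs. Thinned to 5000 UMIs per cell, the share over all Flt3-positive progenitors was 51.9%, 27.6%, 7.84%, and 24.4%, and that of erythroid barcodes 0 to 0.175%. The thinned CS share counts class II-high cells in its total: it was 4 of 51 cells, and all 4 were among the 24 class II-low ones. Later lymphoid steps were scarce. Rag1, a gene of the antigen receptor recombinase, was seen in at most 1 cell per library, and Rag2 in 7, 5, 1, and 1 cells of CBM, TBM, CS, and TS. Il7r, the receptor of common lymphoid progenitors, was seen in 10, 5, 6, and 9 cells. The 12 B-lineage genes summed to 36.5 to 56.9 CPM, and free RNA held 25.5 to 446 CPM of them.

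The share of these progenitors changed with thinning and with the Flt3 threshold. As counted, they made up 2.26% (1.79 to 2.81) of the barcodes passing the filters in CBM and 2.49% (2.05 to 3.0) in TBM, against 1.58% (1.18 to 2.07) in CS and 1.66% (1.33 to 2.04) in TS. The intervals of control and tumor overlapped in both organs, and among all pairs only those of TBM and TS did not overlap. With at least 1 Flt3 UMI the shares were 2.97% (2.44 to 3.59) in CBM, 3.76% (3.21 to 4.36) in TBM, 2.13% (1.66 to 2.69) in CS, and 3.57% (3.08 to 4.11) in TS. The order was then TBM, TS, CBM, CS, and the intervals of CS and TS did not overlap. Median UMIs of all barcodes were 13738 and 14386 in CBM and TBM and 26322 and 26808 in CS and TS. Among barcodes that met the rule for the other genes but had 0 UMIs of Flt3, CS was the deeper library at 19535 and TS, at 13825, lay between CBM and TBM at 14099.5 and 12811. After thinning each barcode to 5000 UMIs and applying the same rule, the shares were 1.47% (42 of 2866) in CBM and 1.17% (42 of 3592) in TBM, against 0.239% (7 of 2932) in CS and 0.442% (22 of 4976) in TS. Barcodes below 5000 UMIs, 631 and 748 in CBM and TBM and 304 and 212 in CS and TS, were left out there. Thinning also lowered counts of Hlf and Elane, so barcodes above their limits could enter the gate. Barcodes that met the rule for the genes other than Flt3 went from 254 to 255 in CBM and from 432 to 368 in TBM. They went from 283 to 145 in CS and from 689 to 397 in TS. The thinned cells are thus not the same set, and the part of this in the shares was not tested. The thinned intervals of both marrow libraries lay above those of both spleen libraries, and also with at least 1 Flt3 UMI, at 2.79% (2.22 to 3.46), 3.20% (2.65 to 3.83), 0.648% (0.391 to 1.01), and 1.45% (1.13 to 1.82) in CBM, TBM, CS, and TS. The share of barcodes in the gate in CS was 0.742% for class II-low cells alone.

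Within their parent gate, the Kit-positive and Cd34-positive barcodes with at most 1 UMI of Hlf and Elane, Flt3-positive cells were 79 of 254 in CBM (31.1%, 25.5 to 37.2), 108 of 432 in TBM (25%, 21.0 to 29.4), 51 of 283 in CS (18%, 13.7 to 23.0), and 86 of 689 in TS (12.5%, 10.1 to 15.2). The order was CBM, TBM, CS, TS, and each neighbor in it overlapped the next in its interval. Class II-low cells were 24 of the 51 in CS and 83 of the 86 in TS. The place of CS above TS therefore rested on class II-high cells. The CBM and CS intervals did not overlap. Thinned to 5000 UMIs, the shares of the parent gate were 16.5%, 11.4%, 4.83%, and 5.54%.

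**Figure D2:**
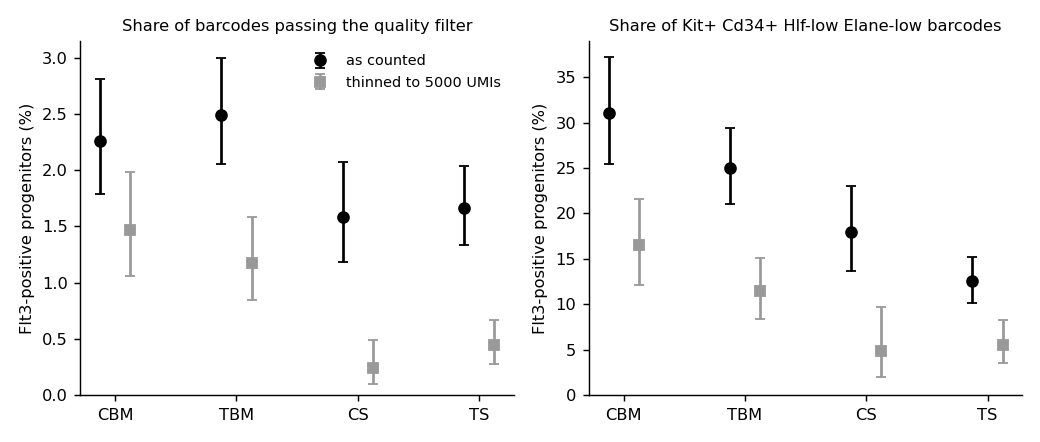
Share of Flt3-positive progenitors among barcodes that passed the filters (left) and among the Kit-positive, Cd34-positive, Hlf-low, Elane-low parent gate (right), in percent, with exact binomial 95% intervals of counting error, 1 library per group. Black circles are the deposited counts and gray squares the same rule after thinning to 5000 UMIs, which lowers CS from 1.58% to 0.239% and CBM from 2.26% to 1.47% of barcodes.

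Flt3 itself had a median of 4, 3, 5, and 3 UMIs per cell in CBM, TBM, CS, and TS and a maximum of 17, 11, 14, and 9. Exactly 2 UMIs were held by 10, 39, 9, and 39 cells, so the threshold fell within the bulk of the TBM and TS cells. Just outside it, 25, 55, 18, and 99 barcodes of the parent gate had 1 Flt3 UMI. Dntt stood at 227, 51.2, 161, and 85.2 CPM in the cells with 2 Flt3 UMIs and at 153, 24.5, 104, and 35.5 CPM in the barcodes with 1. Irf8 stood at 469, 22.6, 515, and 83.7 CPM just inside and at 477, 32.2, 28.7, and 43.1 CPM just outside. Dntt was thus lower outside the threshold in each library, but 1 CS cell and 1 TS cell with 2 Flt3 UMIs held 28 and 30 Dntt UMIs. Over all Flt3-positive CS cells Dntt stood at 36.5 CPM, or 79.7 CPM in class II-low ones, below the 104 CPM just outside. The CS direction therefore depended on few cells. Irf8 had no common direction.

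Flt3-positive progenitors were compared with the 1137 Flt3-negative barcodes of the same parent gate. Lymphoid, dendritic, and granulocyte-monocyte genes were higher in the Flt3-positive cells, and megakaryocyte, erythroid, mast cell, and several stem cell genes were lower. UMIs were summed per library and population and tested by edgeR's quasi-likelihood test with the library as a block (4 libraries, Benjamini-Hochberg adjusted p at most 0.05). Of 9950 genes tested, 700 were higher (7.04%) and 521 lower (5.24%). Without the CS library 839 (8.38%) were higher and 598 (5.97%) lower, and without class II-high barcodes 1056 (10.6%) and 831 (8.33%), of which 662 and 514 were among the genes of the first fit. Median UMIs of the Flt3-negative barcodes were lower, at 14099.5, 12811, 19535, and 13825. When they were limited to the depth range of the Flt3-positive cells of the same library, 552 genes were higher and 478 lower. Other alternatives gave smaller counts: 444 higher without TS, 289 lower without CBM, and 102 higher and 73 lower after thinning to 5000 UMIs before the gate.

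Of the 9 early lymphoid genes tested, 7 rose and the other 2 did not pass, with a list median log2 fold change of 2.32 against -0.01 over all genes tested. Without the CS library 7 of 9 rose as well. Cd52 and Lsp1, both abundant in the class II-high CS cells, rose by 3.01 ± 0.46 and 2.96 ± 0.35 with all cells and by 2.31 ± 0.13 and 2.45 ± 0.15 without class II-high barcodes. Ighm, the heavy chain constant region gene, stood at 254, 109.8, 149, and 96.6 CPM in the Flt3-positive cells of CBM, TBM, CS, and TS and at 16.9, 12.4, 21.9, and 15.7 CPM in the Flt3-negative barcodes (log2 fold change 3.14 ± 0.21 SE, edgeR adjusted p = 2.61e-04). Satb1 stood at 253, 195, 137, and 179.7 CPM against 32.3, 30.2, 47.7, and 46.7 CPM (2.32 ± 0.22, edgeR adjusted p = 6.13e-04). In both genes the lowest Flt3-positive library was above the highest Flt3-negative one. Notch1 rose by 2.12 ± 0.31 on the log2 scale.

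Dntt was at 431, 149, 36.5, and 78.8 CPM in Flt3-positive cells against 2.36, 3.99, 38.3, and 5.07 CPM (3.79 ± 0.94, edgeR adjusted p = 0.034). The CS pair did not follow the other libraries: there the level in Flt3-negative barcodes was the higher one, and without class II-high barcodes the CS value was 79.7 CPM and the log2 fold change 3.89 (edgeR adjusted p = 2.94e-04). Without class II-high barcodes, Il7r also passed, at 1.21 (edgeR adjusted p = 0.00961), and 8 of the 9 genes rose.

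Of the 16 granulocyte-monocyte genes tested, 10 rose, 1 fell, and 5 did not pass (list median 1.34). Mpo, the myeloperoxidase of neutrophil granules, stood at 711, 579.8, 275, and 290.5 CPM against 256, 204, 72.1, and 76.5 CPM (1.77 ± 0.12, edgeR adjusted p = 2.61e-04), and its range over the Flt3-positive libraries lay above that over the Flt3-negative ones. Prtn3, a second granule protease, rose by 2.00 ± 0.13, Csf1r, the receptor of macrophage colony-stimulating factor, by 3.18 ± 0.58, and Csf3r, the receptor of granulocyte colony-stimulating factor, by 2.36 ± 0.22. Fcgr3, an Fc receptor, fell by 2.21 on the log2 scale (edgeR adjusted p = 0.00494). The granule genes were abundant in free RNA, where Mpo reached 3071, 2872, 549, and 545 CPM, and its part in their levels was not tested. In erythroid barcodes Mpo stood at 124, 185, 9.23, and 27.2 CPM, below both populations in each library.

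Of the 6 dendritic genes tested, 5 rose, among them Irf8 at 405, 105, 1249, and 90.5 CPM against 25.2, 8.65, 9.15, and 15.2 CPM (4.33 ± 0.67, edgeR adjusted p = 0.00459) and Runx2, a factor of plasmacytoid dendritic cells, by 1.39 ± 0.12. Without class II-high barcodes Irf8 rose by 3.78 (edgeR adjusted p = 3.03e-06), while Id2, which had risen by 2.19, was at -0.65 and did not pass (edgeR adjusted p = 0.301). Of the 8 genes tested of the MHC class II list, 6 rose with all cells, with H2-Eb1 at 6.50 ± 0.65. Without the CS library 7 of 8 rose (list median 1.42), and without class II-high barcodes 4 of 8 rose (list median 0.69), where H2-Eb1 stood at 0.82 and did not pass (edgeR adjusted p = 0.253). Those barcodes were removed by their UMIs of Cd74, H2-Aa, H2-Ab1, and H2-Eb1, so the results of these genes there were partly set by the removal.

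Of the 14 stem cell genes tested, 9 fell and 2 rose. Gata2, a transcription factor of stem cells and mast cells, stood at 29.8, 60.9, 27.3, and 51.1 CPM against 441, 332, 284, and 134 CPM (-2.67 ± 0.34, edgeR adjusted p = 0.00188), and the groups did not overlap. The 2 that rose were Ly6a, which encodes Sca-1, at 2.00 ± 0.17, and Procr, an endothelial protein C receptor carried by stem cells, at 2.10 ± 0.54. Of the 15 erythroid and megakaryocyte genes, 11 fell, with Gata1, the factor that both lineages need, falling by 2.77 and Pf4, a platelet chemokine, by 4.58. Of 7 mast and basophil genes, 5 fell. Csrp3, a LIM domain protein, had the most negative fold change of the named genes, at -5.86 ± 0.40.

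Of the 17 cytokine receptor genes tested, 7 rose and the other 10 did not pass. Il1r1, the interleukin-1 receptor, stood at 27.6, 71.4, 16.4, and 67.1 CPM against 2.76, 17.1, 4.58, and 12.0 CPM (2.38 ± 0.21, edgeR adjusted p = 5.37e-04), so that within each library the Flt3-positive level was the higher one. Il6ra and Il6st, the 2 chains of the interleukin-6 receptor, rose by 2.32 ± 0.39 and 2.28 ± 0.41. Of 13 homing and adhesion genes, 6 rose, among them Cd48 by 1.46 ± 0.11 and Selplg, the P-selectin ligand, by 1.35 ± 0.14, and 2 integrin genes fell, Itga4 by 0.65 and Itga6 by 0.91. Of 18 lymphoid and myeloid transcription factors, Spi1 (PU.1) rose by 1.74 ± 0.20 and the other 17 did not pass, while 6 rose without the CS library, and 8 rose and 1 fell without class II-high barcodes. Of 19 mitotic genes 1 passed, Kif23 at 0.79 ± 0.21. With all cells, 1 gene of 18 or of 19 is near the 7.04% of all genes tested that were higher. Wfdc17, a secreted protein with a whey acidic domain, rose by 4.90 ± 0.37 with all cells and by 4.90 without class II-high barcodes (edgeR adjusted p = 3.39e-04 and 6.52e-07).

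Hlf-positive progenitors, 859 barcodes with at least 2 UMIs of Hlf and at most 1 of Flt3, were the stem-like neighbors of the Flt3-positive cells. Of 9972 genes tested, 279 were higher (2.80%) and 353 lower (3.54%) in the Flt3-positive cells. The counts depended on which libraries were in the fit. Without CS 707 (6.85%) were higher and 580 (5.62%) lower, without CBM 85 and 87, without TBM 173 and 218, and without TS 154 and 198. They were 928 (9.31%) and 791 (7.93%) without class II-high barcodes, which included 268 of the 279 and all 353 of the genes called with every cell.

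Early lymphoid genes again rose in 7 of 9 cases. Dntt stood at 431, 149, 36.5, and 78.8 CPM against 20.5, 9.74, 0.455, and 12.8 CPM (3.97 ± 0.31, edgeR adjusted p = 6.47e-04), higher in the Flt3-positive cells of each library. Ighm rose by 3.64 ± 0.21 and Satb1 by 1.52 ± 0.12. Irf8 rose by 4.2 ± 0.37 and Ly86, the MD-1 protein of B cells and macrophages, by 4.53 ± 0.35. Of 15 granulocyte-monocyte genes, 5 rose with all cells and 9 both without the CS library and without class II-high barcodes, with Mpo at 1.26 ± 0.14 and Ctsg, the cathepsin G gene, at 1.56 ± 0.23, while Prtn3 was at 0.58 ± 0.17 and did not pass (edgeR adjusted p = 0.0866). Csf3r, which separated the cells from Flt3-negative barcodes, was at 0.29 ± 0.25 here and did not pass.

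Of 14 stem cell genes, 9 fell with all cells and 12 both without the CS library and without class II-high barcodes. Mecom, a stem cell transcription factor, stood at 14.1, 22.0, 1.82, and 8.62 CPM against 81.0, 67.0, 44.6, and 42.6 CPM (-2.27 ± 0.29, edgeR adjusted p = 0.00345), with no overlap. It had not passed against the Flt3-negative barcodes, at -0.50 ± 0.28. Mmrn1, multimerin of stem cells and platelets, fell by 4.02 on the log2 scale, while Ly6a was at -0.34 ± 0.16 and did not pass. Of 15 erythroid and megakaryocyte genes, 7 fell and 0 rose with all cells. Without the CS library 7 fell and 3 rose, and without class II-high barcodes 8 fell and 2 rose. S1pr1, the sphingosine receptor of egress from tissues, fell by 1.66 on the log2 scale and Itga6 by 1.00, and Cxcr4, the receptor that retains progenitors in marrow, rose by 0.94 ± 0.15.

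The summed S phase list was higher than in Hlf-positive progenitors in CBM, TBM, and TS but lower in CS. It stood at 2399, 2514, 1790.0, and 2581 CPM against 1859, 1988, 2062, and 2421 CPM, and at 2369.7 CPM in class II-low CS cells. Its 18 genes had a median log2 fold change of 0.29 with all cells, and 15 did not pass. With all cells 3 of 18 rose, among them Rrm2, a subunit of ribonucleotide reductase, at 50.1, 71.4, 64.4, and 88.6 CPM against 26.6, 39.7, 37.8, and 56.0 CPM (0.90 ± 0.11, edgeR adjusted p = 0.00332). Without class II-high barcodes 15 of 18 rose, with a list median of 0.40. The 19 mitotic genes had a median of 0.07 with all cells, and Cenpf was the 1 that passed without class II-high barcodes, at -0.44 (edgeR adjusted p = 0.04). Of the 17 dissociation and immediate-early genes, 4 fell, among them Egr1 by 1.18 and Jund by 0.70 on the log2 scale, and without class II-high barcodes 10 fell and 3 rose.

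**Figure D3:**
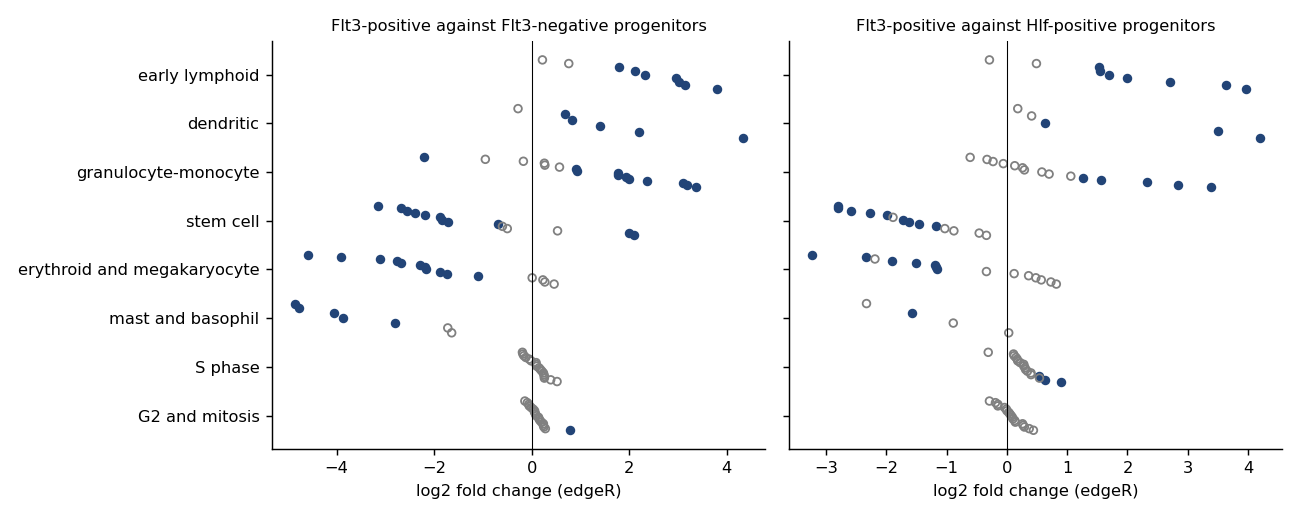
edgeR log2 fold changes of single genes by list, Flt3-positive progenitors over Flt3-negative (left) and over Hlf-positive progenitors (right), on UMIs summed per library with 4 libraries. Filled points passed an adjusted p of 0.05 and open points did not. Early lymphoid genes lie right of 0 (7 of 9 rose on both sides), stem cell genes mostly left (9 of 14 fell on both sides), and mitotic genes near 0.

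The Flt3-positive cells also differed among themselves. Cells with a Dntt UMI, 53, 49, 13, and 37 in CBM, TBM, CS, and TS, were compared with the 26, 59, 38, and 49 without. Of 8096 genes other than Dntt and those of the rule, edgeR called 2 higher (0.0247%) and 9 lower (0.111%), against 295 and 302 at an unadjusted p under 0.05. The higher ones were Satb1, at 309.7, 263, 337.6, and 259.5 CPM against 151.7, 129.5, 76.76, and 120.9 CPM (1.29 ± 0.17, edgeR adjusted p = 0.00888), and Myl10, a myosin light chain, at 1.91 ± 0.24. The lower ones were led by Aif1 at -6.16 ± 0.51 and Cd74 at -5.63 ± 0.56, both genes of the class II-high cells, none of which had Dntt. Without the CS library 13 (0.160%) were higher and 24 (0.295%) lower. Without the TS library 0 were higher and 3 lower by edgeR, against 253 and 284 at an unadjusted p under 0.05.

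Within class II-low cells the same division called 12 genes higher (0.159%) and 10 lower (0.133%) of 7542. Higher were Satb1 (1.01 ± 0.11, edgeR adjusted p = 2.88e-04), Ighm (1.10 ± 0.15), Notch1 (0.94 ± 0.17), Tcf4, an E protein of lymphoid and plasmacytoid dendritic cells (0.62 ± 0.11), and Arpp21, a phosphoprotein gene of early B cells (3.20 ± 0.60). Satb1 stood at 309.7, 263, 337.6, and 259.5 CPM with Dntt and at 156.8, 129.5, 183.2, and 124.8 CPM without, which did not overlap. The 10 lower genes included Mpo at 553.4, 454, 400.4, and 147.8 CPM against 1020, 701.3, 767.9, and 420.3 CPM (-0.94 ± 0.11, edgeR adjusted p = 6.36e-04), Prtn3 (-0.57 ± 0.10), and Ly6c2, a surface protein of monocytes (-1.77 ± 0.33). They also included Zfpm1, a cofactor of GATA factors (-0.98 ± 0.19), Selp, the P-selectin of platelets (-1.45 ± 0.29), and Dach1, a transcriptional regulator (-1.49 ± 0.29). Of the 13 granulocyte-monocyte genes tested 3 fell. Cells with Dntt had median Flt3 counts of 5, 5, 5, and 3 UMIs against 3, 2, 3, and 3 in class II-low cells without it, and median depths of 19124, 18707, 28021, and 17751 UMIs against 24064, 16061, 25736, and 16384 UMIs. The part of depth in this comparison was not tested.

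Lymphoid and myeloid transcripts were found in the same cells. After thinning to 5000 UMIs, 78.5% of CBM cells (67.8 to 86.9), 39.0% of TBM cells (29.7 to 49.1), 27.5% of CS cells (15.9 to 41.7), and 43.0% of TS cells (32.4 to 54.2) had UMIs of at least 1 of the lymphoid genes Dntt, Il7r, Rag1, Rag2, Ccr9, Ighm, and Jchain and of at least 1 of the myeloid genes Mpo, Prtn3, Ctsg, Ms4a3, Csf1r, Cebpe, and Ly6c2. The lymphoid genes alone were seen in 79.7%, 39.0%, 58.8%, and 47.7% of cells and in 4.62%, 2.90%, 3.71%, and 3.16% of erythroid barcodes. The myeloid genes were seen in 97.5%, 100.0%, 54.9%, and 89.5% of cells, but also in 76.9%, 75.4%, 15.6%, and 23.9% of erythroid barcodes. The marrow intervals, 91.2 to 99.7 in CBM and 96.5 to 100.0 in TBM, lay above the erythroid shares. With at least 2 UMIs the shares were 91.1%, 96.2%, 39.2%, and 84.9% against 52.3%, 59.4%, 1.73%, and 3.86%. The CS values here are of all cells. In class II-low CS cells the lymphoid genes were seen in 45.8% (25.6 to 67.2), the myeloid genes in 87.5% (67.6 to 97.3), and both in 33.3% (15.6 to 55.3). Whether both fell in the same cells more often than their separate shares give was not tested.

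Genes of other programs were seen in these cells as well, again after thinning. At least 1 of the stem cell genes Mecom, Procr, Meis1, Mllt3, Fgd5, Hoxb5, and Tek had a UMI in 45.6%, 62.9%, 45.1%, and 44.2% of cells against 20.8%, 30.4%, 29.0%, and 36.5% of erythroid barcodes, so in TBM the stem share was above the lymphoid one. At least 1 of the megakaryocyte, erythroid, and mast cell genes Gata1, Klf1, Car1, Pf4, Itga2b, Cpa3, and Ms4a2 had a UMI in 10.1% (4.47 to 19.0), 25.7% (17.7 to 35.2), 35.3% (22.4 to 49.9), and 59.3% (48.2 to 69.8). In TS this was above the lymphoid share of 47.7% (36.8 to 58.7), with overlapping intervals. With at least 2 UMIs these shares were 6.33%, 9.52%, 7.84%, and 19.8%, and the TS lymphoid share was then the higher one, at 25.6%. Free RNA held Car1 at 89.8, 79.9, 1940, and 1960.4 CPM, and its part was not tested. At least 1 of the dendritic genes Siglech, Irf8, Cd209a, Itgax, Batf3, Zbtb46, and Spib had a UMI in 69.6%, 21.9%, 84.3%, and 30.2%. The share was 66.7% in class II-low CS cells and 7.97% to 10.0% in erythroid barcodes. It was mostly that of Irf8, which is also a factor of monocyte precursors. Irf8 alone had a UMI in 68.4% of CBM, 84.3% of CS, and 23.3% of TS cells, and in 21 of 105 TBM cells. Itgax had a UMI in 2.53% of CBM, 31.4% of CS, and 4.65% of TS cells. Siglech and Cd209a had none in any library, and Spib was seen in TBM only, at 0.952%.

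The question of what the tumor changed in these cells was approached by the ratio of TBM over CBM and of TS over CS. A gene was counted when its mean over the 4 libraries was at least 50 CPM and its ratio at least 2-fold, which is a rule of size and not a test. TBM over CBM had 27 of 3040 genes higher (0.888%) and 35 lower (1.15%). TS over CS had 97 of 3043 higher (3.19%) and 136 lower (4.47%), and in class II-low cells 20 (0.663%) and 17 (0.563%) of 3017. For class II-low cells of marrow the counts were 28 (0.928%) and 16 (0.530%). Among class II-low cells, 5 genes were at least 2-fold higher in both pairs, which is 17.9% of the marrow and 25% of the spleen genes: Cirbp, Ctla2a, Ifitm1, Serpina3g, and Socs3. Another 5, 31.2% and 29.4% of each, were at least 2-fold lower in both: Clec12a, F13a1, Irf8, Lgals1, and Notch1. Of all cells, F13a1 was seen in 8 of CS and 4 of TS, and 1 cell held 67.4% of the CS UMIs and 1 cell 55.6% of the TS UMIs.

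Ifitm1, an interferon-inducible membrane protein, was among the most abundant of these, at 361 CPM in CBM (334 to 390), 1426 in TBM (1374 to 1479), 309.9 in CS (284 to 338), and 1677 in TS (1615 to 1741). Both tumor libraries lay above both control libraries. It had a UMI in 67 of 79, 106 of 108, 29 of 51, and 84 of 86 cells, and its log2 ratios were 1.98 (95% interval 1.86 to 2.11) in marrow and 2.44 (2.30 to 2.58) in spleen. The CS level in class II-low cells was 552 CPM, which lowered the spleen ratio to 1.65. Free RNA held Ifitm1 at 404, 700.1, 489, and 324 CPM, and so was higher in TBM than in CBM but not higher in TS than in CS.

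Socs3, the feedback inhibitor of cytokine receptors that signal through STAT3, stood at 10.7, 108, 15.8, and 103 CPM, in 15, 74, 12, and 66 cells. The tumor libraries were nearly level with each other and lay above both controls, with log2 ratios of 3.34 (2.66 to 4.10) in marrow and 2.71 (2.11 to 3.37) in spleen, or 1.75 in class II-low cells of spleen. Serpina3g, a serine protease inhibitor of hematopoietic cells, stood at 28.7, 121, 52.3, and 206 CPM, with log2 ratios of 2.08 and 1.98, and 2.04 in class II-low cells of spleen. Ly6a was at 31.0, 55.4, 36.5, and 108 CPM, with log2 ratios of 0.84 and 1.56, or 0.82 and 1.47 in class II-low cells. Il1r1 was at 27.6, 71.4, 16.4, and 67.1 CPM, a mean below the 50 CPM that the count required.

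Irf8 was lower with tumor in both organs. Among class II-low cells it stood at 371 CPM (343 to 401) in CBM, 105 in TBM (91.1 to 120), 341 in CS (301 to 386), and 79.3 in TS (66 to 94.6). The control libraries lay above the tumor libraries with no overlap of the intervals, and the log2 ratios were -1.83 (-2.06 to -1.60) in marrow and -2.10 (-2.43 to -1.79) in spleen. With all cells the spleen ratio was -3.79, since CS then stood at 1249 CPM. Free RNA of Irf8 was 260.5, 101, 140, and 16.4 CPM, so it was lower with tumor in each organ as well, and its part was not tested. Clec12a, an inhibitory lectin of myeloid and dendritic cells, stood at 146, 37.4, 86.3, and 27.5 CPM in class II-low cells, and Notch1 at 146, 67.4, 150, and 66.5 CPM, with log2 ratios of -1.12 (-1.43 to -0.81) and -1.17 (-1.57 to -0.78). With all cells Notch1 was 72.9 CPM in CS and the spleen ratio was -0.17 (-0.57 to 0.22).

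Dntt differed between marrow libraries and depended on the class II-high cells in spleen. It stood at 431 CPM in CBM (401 to 463), 149 in TBM (133 to 167), 36.5 in CS (27.8 to 46.9), and 78.8 in TS (65.7 to 93.7), and no pair of these intervals overlapped. TBM over CBM gave a log2 ratio of -1.53 (-1.73 to -1.34). In cells thinned to 5000 UMIs before the gate, 42 each, Dntt stood at 490.5 CPM in CBM and 300.0 CPM in TBM. The log2 ratio of TS over CS was 1.11 (0.66 to 1.58). Among class II-low cells CS stood at 79.7 CPM against 81.9 in TS, a log2 ratio of 0.04 (-0.41 to 0.51). A single CS cell held 46.7% of the CS UMIs of Dntt. Ighm stood at 254, 109.8, 149, and 96.6 CPM, and Satb1 in class II-low cells at 256, 195, 262, and 184 CPM. Of the 7 early lymphoid genes above 50 CPM, 3 were at least 2-fold lower in TBM than in CBM, all 7 had a log2 ratio below 0, and the median was -0.50, against 0.048 over all genes. For class II-low cells of marrow, 3 were 2-fold lower, 6 were below 0 and 1 above, and the median was -0.42. With all cells of spleen, 1 was at least 2-fold higher and 2 lower, 3 were above 0 and 4 below, and the median was -0.17. For class II-low cells of spleen, 1 of 7 was at least 2-fold lower, 6 were below 0, and the median was -0.51.

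**Figure D4:**
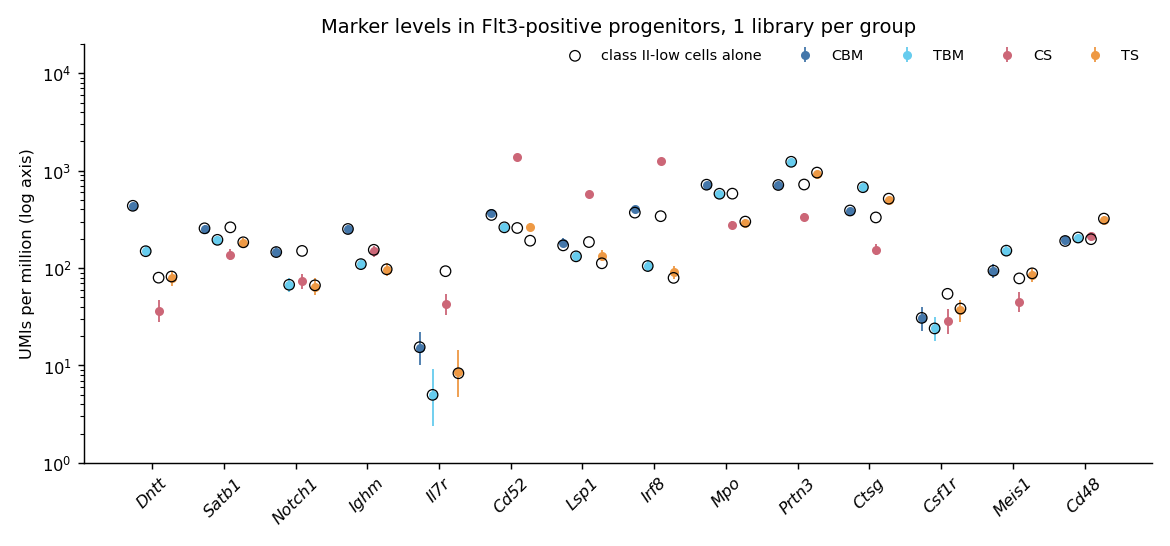
UMIs per 1000000 of marker genes in Flt3-positive progenitors on a log axis, 1 library per group, with exact Poisson 95% intervals of counting error. Colored points are all cells and open circles the class II-low cells alone. Dntt is at 431 in CBM and 149 in TBM, and Irf8 in CS is at 1249 with all cells and 341 without the class II-high ones.

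Granule genes did not move together. Prtn3 was at 707, 1234, 338, and 921 CPM and Ctsg at 386, 677, 154, and 496 CPM, both higher in TBM than in CBM by log2 ratios of 0.80 (0.71 to 0.90) and 0.81 (0.68 to 0.94). Mpo was at 711, 579.8, 275, and 290.5 CPM, with a log2 ratio of -0.29 (-0.41 to -0.18). In spleen the log2 ratios of TS over CS were 1.44 for Prtn3, 1.68 for Ctsg, and 0.078 for Mpo with all cells, and 0.41, 0.64, and -0.95 in class II-low cells. There CS stood at 721 CPM for Prtn3, 331 for Ctsg, and 581 for Mpo, against 956, 516, and 300 CPM in TS. In free RNA Prtn3 was at 3114, 4148, 786, and 1076 CPM and Ctsg at 2097, 3051, 507, and 705 CPM, each higher in TBM than in CBM as well. Gata2 and Cpa3, a mast cell protease, stood at 29.8, 60.9, 27.3, and 51.1 CPM and at 0.563, 18.5, 18.2, and 43.7 CPM, with CS at 19.9 and 13.3 CPM in class II-low cells. Pf4 and Car1, an erythroid carbonic anhydrase, had large marrow ratios in which single cells held much of the UMIs. For Pf4, 1 CBM cell held 57.7%, and without it CBM still stood at 103 CPM against 6.99 CPM in TBM. For Car1, 1 TBM cell held 83.6%, and without it TBM stood at 14.4 CPM against 5.63 CPM in CBM.

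Summed UMIs of the mitotic list were lower in TBM than in the other libraries. All 16 mitotic genes above 50 CPM had a log2 ratio of TBM over CBM below 0, with 6 at least 2-fold lower and a median of -0.81. In class II-low cells these were 14 of 14, 3, and -0.73. Nusap1, a spindle protein, stood at 127, 37.4, 124, and 102 CPM in CBM, TBM, CS, and TS, Hmmr, a microtubule-binding hyaluronan receptor, at 78.3, 23.5, 104, and 60.9 CPM, and Top2a, the topoisomerase of dividing cells, at 490.5, 292, 469, and 485 CPM. The class II-low CS levels were 108, 77, and 381 CPM. In all 3 genes with all cells TBM was the lowest library and its interval of UMI counts overlapped no other. Such intervals treat UMIs of the same cell as independent. By share of thinned cells with a UMI, TBM was again lowest, but its intervals overlapped all others. For Top2a they were 40.4 to 63.3, 29.7 to 49.1, 36.6 to 65.2, and 48.2 to 69.8% in CBM, TBM, CS, and TS. For Mki67, a second mitotic gene, they were 35.5 to 58.4, 24.4 to 43.2, 32.9 to 61.5, and 41.3 to 63.2%. The S phase list was not lower in TBM than in CBM. Of its 14 genes, 8 had a log2 ratio above 0 and 6 below, with a median of 0.061. Summed S phase UMIs were 2399, 2514, 1790.0, and 2581 CPM. Per cell, the mitotic list had a median of 5.15, 3.34, 4.60, and 8.94 UMIs per 10000 and an upper quartile of 27.1, 13, 36.8, and 29.1. In free RNA the mitotic list stood at 1603, 1646, 1519, and 1837 CPM, with no lower value in TBM.

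The summed inflammatory and immediate-early lists were higher in both spleen libraries than in both marrow libraries, though not each of their genes was. CS over CBM had 140 of 3043 genes at least 2-fold higher (4.60%) and 72 lower (2.37%), and in class II-low cells 37 (1.23%) and 11 (0.365%) of 3017. TS over TBM had 31 higher (1.02%) and 10 lower (0.329%), and in class II-low cells 20 (0.663%) and 9 (0.298%). In class II-low cells 12 genes were at least 2-fold higher in spleen in both pairs, 32.4% of the control and 60.0% of the tumor genes: Btg2, Car1, Cd69, Cxcl2, Dusp2, Egr1, Gadd45b, Icam1, Ly6d, Nfkbia, Nfkbiz, and Ptgs2. For Car1, 1 cell held 78.5% of the CS UMIs and 1 cell 31.0% of the TS UMIs. Ly6d had 0 UMIs in CBM, so its ratio in control mice was a bound. It was seen in 5 CS and 8 TS cells, with 39.8% and 38.1% of the UMIs in 1 cell each, and 1 TBM cell held 89.7%. The 4 genes lower in spleen in both pairs were the hemoglobin genes Hba-a1, Hba-a2, Hbb-bs, and Hbb-bt. For Hbb-bs, 1 cell held 48.4% of the CBM UMIs and 1 cell 68.0% of the TBM UMIs, and free RNA held 1366 to 5911 CPM. These genes were named after their values were seen.

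Cxcl2, a chemokine for neutrophils, stood at 5.13 CPM in CBM (2.34 to 9.73), 33.4 in TBM (25.9 to 42.5), 175 in CS (147 to 208), and 347 in TS (318 to 377) in class II-low cells. No intervals overlapped, and the log2 ratio was 5.09 (4.13 to 6.26) for CS over CBM and 3.37 (3.01 to 3.76) for TS over TBM. It was detected in 5, 9, 17, and 49 of all the cells and was at 13.3, 26.1, 66.3, and 85.1 CPM in free RNA, and in the class II-high CS cells it was at 2.24 CPM. Cd69, an early activation antigen that retains lymphocytes in tissue, stood at 68.4, 116, 417, and 416 CPM in class II-low cells, Nfkbia, the inhibitor of NF-kB, at 94.6, 112, 325, and 486 CPM, and Gadd45b, a stress-response gene, at 13.7, 43.9, 155, and 175 CPM. Each was higher in both spleen libraries than in both marrow libraries. Tnf, which encodes tumor necrosis factor, was at 9.57, 7.48, 45, and 52.3 CPM in all cells and at 54.4 CPM in class II-low CS cells.

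Of the 9 inflammatory and NF-kB genes above 50 CPM, 4 were at least 2-fold higher in CS than in CBM with all cells, and 7 in class II-low cells, where all 9 had a log2 ratio above 0 with a median of 1.56. The summed list was at 764, 1149, 1627, and 2306 CPM, against 884, 1028, 1149, and 792 CPM in free RNA. In class II-low cells it was at 762, 1149, 2088, and 2315 CPM, so CS lay closer to TS there, and in class II-high CS cells at 1238 CPM. For TS over TBM, 3 of the 9 were at least 2-fold higher and the median was 0.33, or 0.30 in class II-low cells, with 3 and 2 of the 9 below 0. The immediate-early list, which enzymatic digestion also induces, moved alongside, at 5690.1, 7153, 8314, and 10147 CPM in the cells and 4644, 5345, 6409, and 6432 CPM in free RNA, and its part in the inflammatory genes was not tested. Of its 16 genes above 50 CPM, 6 were at least 2-fold higher in CS than in CBM, or 8 of 15 in class II-low cells. For TS over TBM, 4 of 16 were at least 2-fold higher, or 4 of 15 in class II-low cells. The 2 of the 16 below 0 there were Fosb, at 317 CPM in TBM and 233 in TS, and Klf6, at 66.9 and 30.2 CPM, with log2 ratios of -0.45 and -1.15. The same lists stood at 818, 1059.7, 1535, and 2006 CPM (inflammatory) and at 7687, 8616, 11846, and 11452 CPM (immediate-early) in Hlf-positive progenitors of the same libraries, so the order of the inflammatory list was the same in both populations.

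**Figure D5:**
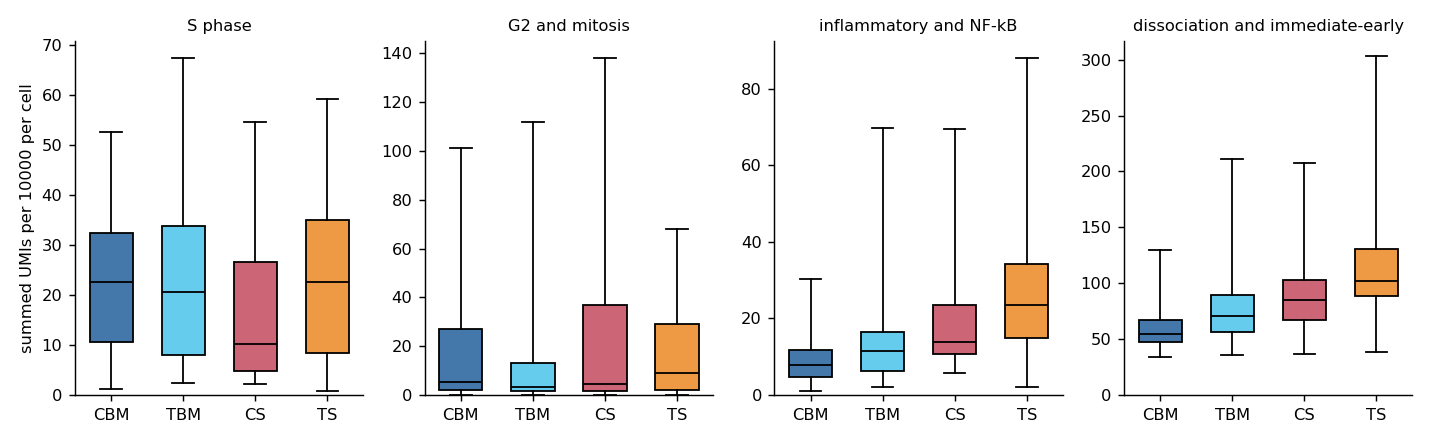
Summed UMIs per 10000 in each Flt3-positive progenitor for the S phase, mitotic, inflammatory, and immediate-early lists, by library, with all cells included. Boxes span the quartiles with the median as a line, and whiskers span all cells. The upper quartile of the mitotic list is lowest in TBM (13), and the median of the inflammatory list is 7.92 in CBM and 11.4 in TBM against 13.8 in CS and 23.6 in TS.

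MHC class I genes, which present peptides to CD8 T cells, stayed within 2-fold in class II-low cells. The 10 class I genes summed to 3908, 3545, 4341, and 3978 CPM, and none of the 9 above 50 CPM was 2-fold apart in any of the 4 ratios. Psmb8, an immunoproteasome subunit, stood at 514, 481, 531, and 628 CPM there and at 987 CPM in the class II-high CS cells, and class I genes summed to 6709 CPM in those. The interferon-stimulated list summed to 1384, 1488, 1809, and 1853 CPM in class II-low cells, and of its 3 genes above 50 CPM none was 2-fold apart in any ratio. The transcription factor list of 21 genes stood at 3332, 3132, 3413, and 3020.1 CPM in class II-low cells, and none of its 16 genes above 50 CPM was 2-fold apart in any ratio. Irf8, which was counted in the dendritic list, is not among them. Over all 3017 genes of class II-low cells, 0.298% to 1.23% were at least 2-fold higher or lower in a given ratio. The counts of 0 in these 3 lists are near that share and do not set the lists apart.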

How the data were processed

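The authors sorted and pooled the cells, prepared 10x Genomics libraries, and counted UMIs with Cell Ranger 4.0 on mm10. The deposited values are UMI counts per gene and barcode of 4 unfiltered matrices with 32285 genes, as whole numbers without normalization or removal of free RNA. Here, barcodes were selected by the stated rule, and their UMIs were summed per library and scaled to all UMIs of the cells (CPM) with exact Poisson 95% intervals. Ratios had exact conditional intervals, and a gene at 0 was set to 3 counts. Such intervals cover counting error only. Thinning drew 5000 UMIs per barcode without replacement. Populations were compared on summed counts with edgeR 4.0.16 (R 4.3.3), the 4 libraries as blocks, filterByExpr, and Benjamini-Hochberg adjustment. The libraries may have come from single or pooled mice. The p-values measure how the difference between populations within a library varied over these 4 libraries, which differ in organ and tumor state. DESeq2 1.42.0 was an alternative. Both scripts were checked on simulated data.

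Named genes were the 8 highest and 8 lowest ratios between libraries among genes of at least 50 CPM, the 10 highest and 10 lowest fold changes past the threshold with 1 sign in all libraries, without mitochondrial, ribosomal, hemoglobin, immunoglobulin, Gm, and Rik genes, Xist, and the genes of the rule, plus genes of 19 lists (285 of 286 genes in the files). Genes called in both pairs of libraries, and the top genes of class II-high cells, were named after their values were seen. The cells, the lists, and the tests were chosen with earlier results of these data known. The division by class II UMIs was added after seeing the data. No column of another sample was used. A few genes of the lists are not reported here by name.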

Additional observations from a re-analysis of the deposited data

Results flagged for a closer look

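For 4 of the named genes the tumor library lay above the control library in one organ and below it in the other, by at least 2-fold in each. With 1 library per group the difference between organs was not tested. Fosb, an immediate-early gene, had a log2 ratio of 1.21 for TBM over CBM and -1.17 for TS over CS, at 137, 317, 524, and 233 CPM in CBM, TBM, CS, and TS, and -1.36 in class II-low cells of spleen. Klf6, a zinc finger factor, had 1.34 and -2.62, at 26.5, 66.9, 186, and 30.2 CPM, and 1.48 and -1.50 in class II-low cells, so its directions held without the class II-high cells. Ciita, the activator of MHC class II genes, had 1.20 and -5.80, at 2.82, 6.49, 239, and 4.31 CPM. Its marrow ratio rested on 5 UMIs in 2 CBM cells and 13 UMIs in 6 TBM cells, with 80% and 53.8% in 1 cell, and its interval of -0.38 to 3.05 included 0. In class II-low cells both spleen libraries had 0 UMIs. Dntt had -1.53 and 1.11, and in class II-low cells -1.55 and 0.04.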

How the results depend on the processing

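Counts of genes at least 2-fold apart (higher and lower) were 27 and 35 for TBM over CBM, 97 and 136 for TS over CS, 140 and 72 for CS over CBM, and 31 and 10 for TS over TBM. After thinning to 5000 UMIs before the gate, which left few cells, they were 166 and 125, 419 and 503, 568 and 372, and 225 and 205. With a mean of at least 20 CPM they were 86 and 80, 246 and 363, 361 and 201, and 83 and 43. Without class II-high cells, an alternative added after seeing the data, TBM over CBM had 16 lower, TS over CS 20 and 17, CS over CBM 37 and 11, and TS over TBM 20 higher. With at least 1 Flt3 UMI, TS over CS had 60 and 83 and CS over CBM 89 and 43. With at least 3, TS over TBM had 19 lower. Centered on the median ratio, TS over CS had 60 higher.

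Shares in the gate with at least 1 Flt3 UMI were 2.97%, 3.76%, 2.13%, and 3.57% in CBM, TBM, CS, and TS. With at least 3 they were 1.59% in TBM and 0.906% in TS. Thinned to 5000 UMIs they were 1.47%, 1.17%, 0.239%, and 0.442%, and thinned with at least 1 Flt3 UMI, also added after seeing the data, 3.20% in TBM and 0.648% in CS. Without class II-high cells CS had 0.742%. The Dntt level with at least 1 Flt3 UMI was 387, 114, 55.9, and 58.3 CPM, and with at least 3 it was 198 in TBM and 14.3 in CS. Thinned it was 490.5, 300.0, 0, and 54.5 CPM. The thinned CS value came from 7 cells with 35000 UMIs, where 3 counts would lie above the TS value, so its 0 does not show a loss. Of the 22 thinned TS cells 3 had Dntt. With free RNA subtracted the level was 474 in CBM, without the 5% of cells with most UMIs 476 in CBM, and without class II-high cells 79.7 in CS.

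Against Flt3-negative progenitors (700 higher, 521 lower), thinning gave 102 and 73, no filter on low counts 823 lower, and no class II-high barcodes 1056 and 831. Leaving out 1 library gave 444 (without TS) to 839 (without CS) higher and 289 (without CBM) to 598 (without CS) lower. Against Hlf-positive progenitors (279 and 353), thinning gave 65 and 73, no filter 597 and 660, no library block 139 and 208, and no class II-high barcodes 928 and 791. Leaving out 1 library gave 85 and 87 (without CBM) to 707 and 580 (without CS), with 173 and 218 without TBM and 154 and 198 without TS. For cells with Dntt against those without (2 and 9), DESeq2 gave 8 higher, no filter 105 and 237, no class II-high cells 12 higher, and leaving out 1 library 0 to 13 higher and 3 to 24 lower, with 4 lower without CBM and 16 without TBM. No library block gave 0 and 0 by edgeR, with 191 and 253 at an unadjusted p under 0.05, and DESeq2 with the block 8 lower. The thinned comparison was not run, since CS had 0 thinned cells with Dntt. The cause was not tested.

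Of 64 ratios of single genes, 10 reversed. Without class II-high cells, TBM over CBM was 0.60 for Cd74 and 0.67 for H2-Aa, CS over CBM -0.26 for H2-Eb1 and -1.36 for Naaa, and TS over TBM -0.020 for Cd74, -0.64 for H2-Aa, and -0.96 for H2-Eb1. Cd74, H2-Aa, and H2-Eb1 are among the genes by which those cells were removed. After thinning, CS over CBM was 1.00 for Cst7 and TS over TBM 0.10 for Klf6. With at least 3 Flt3 UMIs, TS over TBM was 0.21 for Car2. 435 other alternatives stayed within the counting interval, 106 moved, and 25 had at most 3 UMIs in both libraries and gave no ratio. Of 51 single genes in the contrasts, 0 reversed and 47 of their alternatives no longer passed. No paired analysis was possible because each group has 1 library and the labels carry no replicate numbers. Contrasts between populations were paired within library. Depth limits genes below about 50 CPM, and 51 CS cells, 24 of them class II-low, bound every CS value.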

Other observations

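Il7r was concentrated in few cells. Its level of 42.5 CPM in CS came from 6 of 51 cells, all class II-low, and 1 of them held 31.4% of its UMIs, against 15.2 CPM in 10 CBM cells, 4.99 CPM in 5 TBM cells, and 8.62 CPM in 9 TS cells. The Flt3-negative barcodes of CS also held Il7r at 43.3 CPM and Dntt at 38.3 CPM, above the 1.77 to 7.88 CPM and 2.36 to 5.07 CPM of the other libraries. Ly6d, a surface protein of lymphoid precursors, had 0 UMIs in CBM, was seen in 4 TBM, 5 CS, and 8 TS cells, and 1 TBM cell held 89.7% of the TBM UMIs.

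Dennd5b, a gene of vesicle traffic, was the highest ratio of TS over CS in class II-low cells, at 113, 113, 13.3, and 71.0 CPM in CBM, TBM, CS, and TS, with a log2 ratio of 2.42 (1.49 to 3.52). CS was the library apart, in class II-high cells as well, at 13.4 CPM, and free RNA stood at 104, 83.3, 17.4, and 25.5 CPM. Meis1, a homeobox gene of stem cells and early progenitors, stood at 94.0, 151, 78.3, and 88.3 CPM in class II-low cells, with TBM above the other libraries beyond counting error.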
